A study of Mus musculus with 27 samples.

Results

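Notch receptors, ligands and effectors were followed in a mouse macrophage cell line, RAW264.7, under an inflammatory stimulus and under the same stimulus with an inhibitor of the RNA-binding protein HuR. The members were taken by gene symbol: the receptors Notch1, Notch2 and Notch4, the ligand Jag1, the protease Adam10, the DNA-binding factor Rbpj, its coactivator Maml1, and the effectors Hes1 and Hey1. These are 9 of the 55483 genes in the table, and each had 1 row. Notch1 was chosen by a measured value of these data, its rise with LPS, and the other members by their place in the pathway. Comparisons of Notch1 between treatments, and with the RNA libraries of DMSO and LPS, are therefore given as a description, with no test and outside the counts of members called.

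Cells were treated for 6 h with DMSO, with 1 µg/ml LPS (lipopolysaccharide, a bacterial product that activates macrophages) or with LPS and 10 µM TM7nox. TM7nox belongs to the tanshinone mimics, small molecules made to interfere with HuR, and the LPS group received DMSO as the vehicle. Each treatment had 4 total RNA libraries, 4 libraries of RNA immunoprecipitated with an anti-HuR antibody (RIP) and 1 library precipitated with control IgG (replicate 3 each time), which makes 27. All came from 1 cell line, the labels name no genetic change in it, and they name no group with TM7nox alone.

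Notch signalling passes between neighbouring cells. A ligand such as Jagged or Delta on one cell binds a Notch receptor on the next, ADAM10 sheds the receptor's outer part, and gamma-secretase then frees its intracellular domain. That domain enters the nucleus, joins RBPJ and a Mastermind protein, and activates targets such as the HES and HEY repressors. In macrophages the pathway is known to interact with Toll-like receptor signalling. HuR, encoded by Elavl1, binds U-rich and AU-rich stretches, mostly in 3′ untranslated regions (3′ UTRs), and is known for stabilising the mRNAs it binds.

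Total RNA libraries held 2.73 to 28.3 M counted reads, RIP libraries 19.8 to 41.4 M and IgG libraries 8.87 to 24.5 M. The shallowest was replicate 1 of the DMSO RNA group; each other RNA library held at least 16.3 M. All 10 macrophage markers reached a mean of 1 CPM (reads per 1 M counted, scaled between libraries by TMM) in total RNA, whereas this held for 1 of 6 endothelial, 1 of 6 T cell, 0 of 5 fibroblast and 0 of 5 epithelial markers. The summed T cell markers were at 1.41 to 4.07, 7.58 to 9.20 and 9.06 to 12.6 CPM in DMSO, LPS and LPS with TM7nox, nearly all of it Lck, while Cd3d, Cd3e and Cd3g were at 0.0529 CPM or less. The part of these levels in the results was not tested. The labels do not say that replicates were separate cultures, so p-values measure the spread between these samples. In bulk RNA, fewer cells that express a gene and less RNA per cell cannot be told apart.

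Stretches of the 3′ UTR are shown first because HuR recovery is compared between these mRNAs later. For the 6 members with the most reads, the 30 bases of the 3′ UTR with the most T (U in the RNA) are given 5′ to 3′ on the transcribed strand, from the GRCm39 genome and the GENCODE M39 canonical transcript. Capitals mark ATTTA and runs of 5 or more T.
Jag1, chr2:136924071-136924100, minus strand: tggaaTTTTTTTTTTTTTTTTTTTTTTTgt
Notch2, chr3:98057087-98057116, plus strand: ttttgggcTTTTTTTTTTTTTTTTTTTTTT
Adam10, chr9:70686803-70686832, plus strand: tgtttggcTTTTTTTTTTTTTTccTTTTTT
Notch1, chr2:26349379-26349408, minus strand: tttccaTTTTTTTTTTTagtATTTATTTAt
Rbpj, chr5:53813292-53813321, plus strand: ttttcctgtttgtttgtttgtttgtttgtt
Maml1, chr11:50148631-50148660, minus strand: tgttttcagtgtttagtcatcttatatttt
The Jag1 window holds a T run of 23 bases and the Notch2 window one of 22. The Notch1 window pairs a T run of 11 with 2 overlapping copies of ATTTA. The Rbpj and Maml1 windows hold no T run of 5 or more, and that of Rbpj repeats tttg. A second stretch of Jag1, chosen as the 30 bases with the most ATTTA, holds 2 copies.
Jag1, chr2:136924581-136924610, minus strand: tcatagttttATTTAtATTTAttgactctt

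Over the whole 3′ UTR, Jag1 stood near the top for both features. Its 1571 bases held 36.6% U, which was the 95.6th percentile of 10990 protein-coding genes, and 10 copies of ATTTA, or 6.37 per kb (97.0th percentile). The medians of those genes were 29.2% U and 1.38 ATTTA per kb. Adam10 held 34.71% U and 20 T runs of 5 or more in 2135 bases, or 9.37 per kb (97.2nd percentile), but its 1.41 ATTTA per kb lay at the 50.5th percentile. Rbpj held 33.86% U in 3742 bases. Notch2 (29.83%), Notch1 (28.07%) and Maml1 (27.63%) lay between the 36.9th and the 55.7th percentile for U content. The low-abundance effector Hes1 had a short 3′ UTR of 397 bases with 39.04% U and no ATTTA.

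The members were present at very different levels, and their order changed with LPS. Exon length here is the merged length of all annotated exons of a gene. It was 12.85 kb for Rbpj, 11.26 kb for Notch2 and 5.57 kb for Adam10. It can exceed the length of the mRNA present, so the order between genes depends on it. Divided by exon length, mean total RNA in DMSO ran from Adam10 (25.5 ± 1.98 CPM per kb, SD, n = 4) through Notch2 (10.4 ± 1.16), Rbpj (8.96 ± 1.17), Maml1 (3.12 ± 0.288) and Jag1 (1.08 ± 0.175) to Notch1 (0.111 ± 0.027) and Notch4 (0.02 ± 0.0145). Notch2 and Rbpj did not differ beyond their spread in DMSO, while the other neighbours in this order had SD ranges that did not overlap. In LPS, Notch2 led with 30.2 ± 3.3 CPM per kb, followed by Rbpj (16.5 ± 1.44) and Adam10 (13.8 ± 2.22), whose SD ranges overlapped, and Notch1 was at 5.54 ± 0.626, above Maml1 (3.63 ± 0.563) and Jag1 (1.47 ± 0.572). Notch2 was the more abundant receptor per length in every treatment, with 22.8 ± 0.473 CPM per kb against 1.71 ± 0.387 for Notch1 in LPS and TM7nox.

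**Figure D1:**
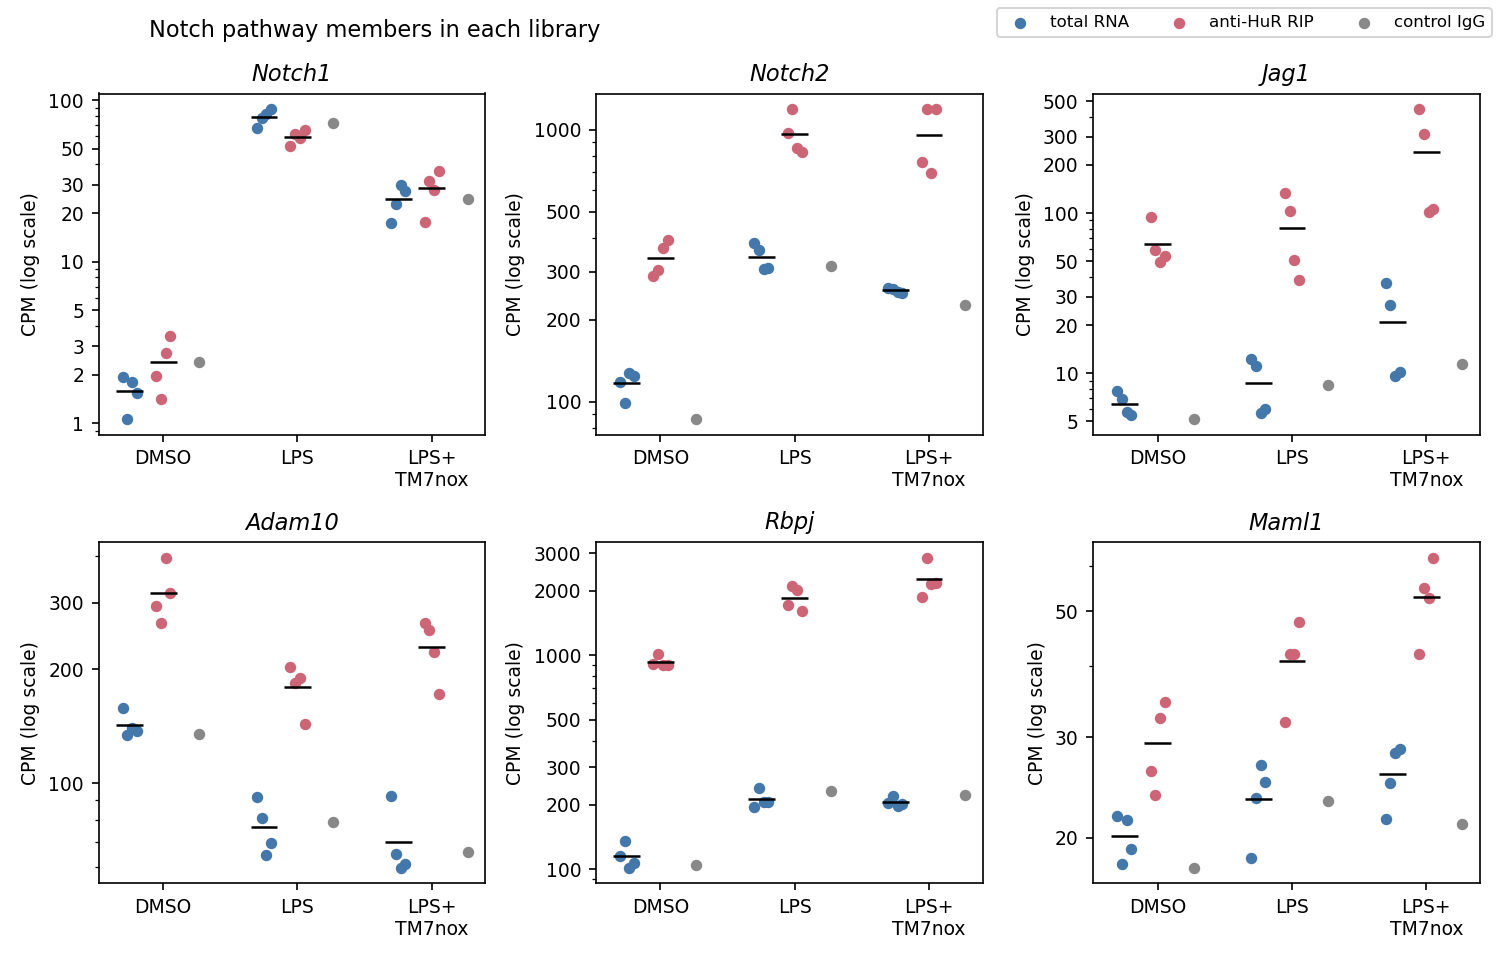
CPM (log axis, which differs between panels) of 6 members in each of the 27 libraries, by treatment; points are libraries and black lines the means of 4. Notch1 sits between 1.06 and 1.93 CPM in DMSO total RNA and between 67.1 and 88.2 in LPS, and anti-HuR points of Jag1 and Rbpj lie far above total RNA and IgG.

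Notch1 went from near the limit of counting to a moderately abundant mRNA. Total RNA held 1.93, 1.06, 1.80 and 1.53 CPM in DMSO replicates 1 to 4, from 9 to 55 reads per library. With LPS the same values were 67.1, 77.8, 82.3 and 88.2 CPM, from 1548 to 2751 reads. The fitted difference was 5.67 on the log2 scale (SE 0.222), or 50.9-fold. Anti-HuR RIP gave 1.95, 1.41, 2.71 and 3.45 CPM in DMSO and 52.2, 61.4, 58.7 and 65.6 CPM in LPS, a difference of 4.63 (SE 0.302). The IgG libraries went from 2.39 to 72.7 CPM. Every LPS library was above every DMSO library in each assay.

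Notch1 was lower when TM7nox was added to LPS. Total RNA held 17.3, 22.9, 29.8 and 27.5 CPM, all below the LPS libraries and all above DMSO. The log2 difference from LPS was -1.69 (SE 0.174), or 0.309 of the LPS level, a description because the LPS libraries in which Notch1 was chosen enter it. In RIP, 17.7, 31.6, 27.9 and 36.6 CPM were again all below LPS, with a difference of -1.0 (SE 0.256). The single IgG library was at 24.5 CPM, against 72.7 in LPS.

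Notch2, the receptor with the highest level, rose with LPS in both assays. Total RNA held 118.1, 98.6, 127.7 and 124.8 CPM in DMSO and 382.1, 360.0, 307.6 and 309.8 CPM in LPS, with no overlap. The log2 difference was 1.48 (SE 0.122, edgeR quasi-likelihood adjusted p = 3.75e-07). Here and below, p-values were adjusted over all genes tested by the Benjamini-Hochberg method, and a gene is called at an adjusted p under 0.05. RIP rose from a mean of 338.4 ± 49.2 to 959.6 ± 163.6 CPM (SD, n = 4), a difference of 1.47 (SE 0.239, edgeR adjusted p = 0.000122). With TM7nox, total RNA held 261.3, 260.5, 252.2 and 251.3 CPM, all below LPS. The difference was -0.41 (SE 0.12, edgeR adjusted p = 0.0358). Within a replicate number, Notch2 was lower with TM7nox in 4 of 4 pairs, at 0.684, 0.724, 0.82 and 0.811 of the LPS level. The call held in 11 of 19 alternatives, among them the replicate block (-0.4, adjusted p = 0.0115), DESeq2 (0.00604) and replicates 3 and 4 alone (-0.28, 0.026). It ended without any single one of LPS replicates 1 and 2 or of LPS and TM7nox replicates 1, 2, 3 and 4 (adjusted p 0.0505 to 0.102), with replicates 1 and 2 alone (-0.51, adjusted p = 0.362) and with no filter on low counts (0.127). In RIP, TM7nox left Notch2 at 957.3 ± 268.2 CPM, a difference of 0.06 with a 95% interval of -0.40 to 0.52.

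Notch4, a receptor best known from endothelial cells, stayed close to 0. It had 70 reads in 12 RNA libraries, with at most 12 in one library, and 52 reads in 12 RIP libraries. The 3 IgG libraries held 33 reads, 28 of them in DMSO (0.728 CPM, its highest level in any library). It was below the count filter in the separate RNA and RIP fits. In the fit of both assays together, none of its 3 comparisons of RIP with RNA was called (log2 0.07, -0.02 and -0.47 in DMSO, LPS and LPS with TM7nox).

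Jag1, a transmembrane ligand of the Notch receptors, reached its highest level in LPS with TM7nox. In total RNA it held 7.70, 6.91, 5.70 and 5.49 CPM in DMSO, then 12.2, 11.1, 5.68 and 5.96 CPM in LPS. With TM7nox it held 36.6, 26.6, 9.59 and 10.2 CPM. In every treatment replicates 1 and 2 were above replicates 3 and 4, and the LPS libraries overlapped both other groups. The same pattern held in RIP at higher levels, with 94.5, 58.4, 49.4 and 53.9 CPM in DMSO, 132.9, 102.3, 50.7 and 38.3 CPM in LPS and 446.1, 312.2, 102.2 and 106.3 CPM in LPS with TM7nox.

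Jag1 did not pass the test for LPS against DMSO. The log2 difference was 0.41 in RNA (95% interval -0.41 to 1.24) and 0.31 in RIP (-0.57 to 1.19). Adding TM7nox to LPS gave 1.25 in RNA (SE 0.409, edgeR adjusted p = 0.0581), which was not called but passed in 8 of 19 alternatives (adjusted p 1.82e-07 to 0.187), and 1.58 in RIP (SE 0.459, adjusted p = 0.0272), which was. The RIP call ended without LPS and TM7nox replicate 1 (1.12, adjusted p = 0.0937) or 2 (0.0681), or without LPS replicate 3 (0.0739) or 4 (0.0743). Within a replicate number, Jag1 was higher with TM7nox than with LPS alone in 4 of 4 pairs in each assay, by 2.99-, 2.39-, 1.69- and 1.72-fold in RNA and by 3.36-, 3.05-, 2.02- and 2.78-fold in RIP. With the replicate number as a block, both assays were called, at 1.13 (SE 0.207, adjusted p = 0.00171) in RNA and 1.51 (SE 0.198, adjusted p = 2.52e-05) in RIP. Replicates 1 and 2 alone gave 1.44 in RNA and 1.68 in RIP, and replicates 3 and 4 alone gave 0.78 and 1.39, all called. With a term for replicates 1 and 2 against 3 and 4, the RNA difference was 1.14 (edgeR adjusted p = 0.00233). The labels do not say what separates these pairs of replicates. Whether the difference with TM7nox itself differed between the pairs was not tested. Against DMSO, LPS with TM7nox was higher in RNA by 1.67 (SE 0.425, edgeR adjusted p = 0.00509), and the libraries did not overlap.

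**Figure D2:**
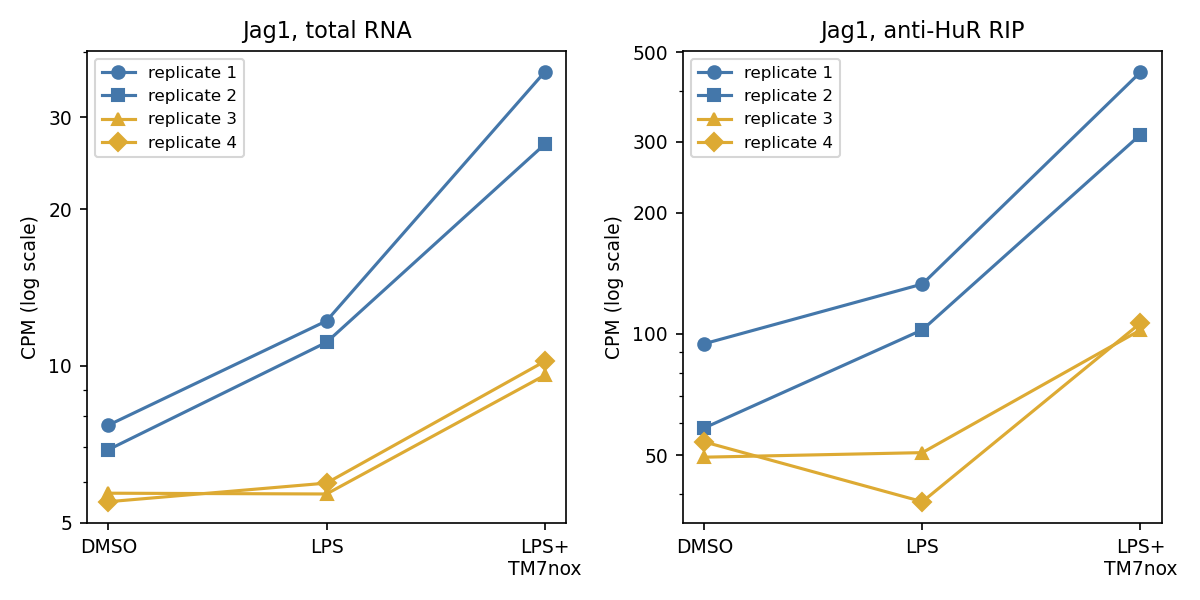
Jag1 CPM (log axis) in total RNA and anti-HuR RIP by treatment, with 1 line for each replicate number. All 4 lines go up from LPS to LPS with TM7nox in both assays, and replicates 1 and 2 lie above replicates 3 and 4.

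Adam10, the protease that makes the first ligand-dependent cut in Notch, fell with LPS. Total RNA held 158.4, 133.8, 140.0 and 136.9 CPM in DMSO and 92.0, 81.0, 64.3 and 69.4 CPM in LPS. The log2 difference was -0.95 (SE 0.169, edgeR adjusted p = 0.000434), and the libraries did not overlap. RIP gave -0.85 (SE 0.172, edgeR adjusted p = 0.000854). With replicates 1 and 2 alone neither was called, at -0.78 in RNA (adjusted p = 0.0688) and -0.59 in RIP (0.101). TM7nox left total RNA at 92.5, 65.0, 59.7 and 61.2 CPM, a difference from LPS of -0.14 with a 95% interval of -0.47 to 0.19. In RIP the difference was 0.38 (SE 0.171, adjusted p = 0.147), called only with the replicate block (0.38, adjusted p = 0.0481) among 19 alternatives.

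Rbpj, the DNA-binding protein through which all Notch receptors act on transcription, rose with LPS and stayed up with TM7nox. Total RNA held 115.8, 136.0, 101.9 and 106.6 CPM in DMSO, 196.4, 238.9, 206.5 and 207.2 CPM in LPS and 205.3, 220.6, 197.4 and 202.5 CPM in LPS with TM7nox. LPS against DMSO gave 0.82 on the log2 scale (SE 0.119, edgeR adjusted p = 7.6e-05) and LPS with TM7nox against DMSO 0.79 (SE 0.119, adjusted p = 9.11e-05). TM7nox against LPS gave -0.04 with a 95% interval of -0.27 to 0.19. RIP rose with LPS from 931.3 ± 55.8 to 1860.5 ± 235.6 CPM (SD, n = 4), by 0.96 (SE 0.184, edgeR adjusted p = 0.000547), a call that replicates 1 and 2 alone did not give (0.92, adjusted p = 0.067).

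Maml1, a Mastermind coactivator that binds the complex of RBPJ and the Notch intracellular domain, differed little between treatments in total RNA. Total RNA held means of 20.1 ± 1.86, 23.5 ± 3.63 and 25.8 ± 3.27 CPM in DMSO, LPS and LPS with TM7nox (SD, n = 4). LPS against DMSO gave 0.17 (95% interval -0.10 to 0.44), and was called with replicates 3 and 4 alone (0.34, adjusted p = 0.015), against 0.06 with replicates 1 and 2 alone. LPS with TM7nox against DMSO gave 0.31 (edgeR adjusted p = 0.0802), which was called with the replicate block (0.32, adjusted p = 0.0364). In RIP, LPS gave 0.45 (SE 0.192, adjusted p = 0.0656) and TM7nox a further 0.43 (SE 0.192, adjusted p = 0.14). Both were called with the block, at adjusted p of 0.0039 and 0.0127.

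The canonical effectors were nearly silent. Hes1, a transcriptional repressor and direct Notch target, had 22 reads in 12 RNA libraries, of which 11 were in replicate 1 of LPS. Its values there were 0.477, 0.0328, 0.106 and 0.0641 CPM, against 0, 0, 0.0983 and 0 in DMSO. Hey1, a related repressor, had 5 reads in the RNA libraries and 15 in RIP. It had no read in the 4 LPS RNA libraries, where 0 of 95.5 M reads allows up to 0.0265 CPM, and none in the 4 LPS RIP libraries, which allows up to 0.0391 CPM (3 reads over the group, covering counting error only). In RIP, Hey1 had between 2 and 4 reads in each DMSO library. Both genes were below the count filter of the edgeR fits. Where DESeq2 or edgeR with no filter on low counts gave them an adjusted p, neither gene was called in any comparison, and the lowest adjusted p was that of Hey1 in RIP for LPS against DMSO (0.0797, no filter).

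Of the 5 members tested for LPS against DMSO in total RNA, 3 were called (Notch2 and Rbpj higher, Adam10 lower), beside 42.0% of all genes (20.2% higher, 21.7% lower), and their median log2 difference was 0.41 beside -0.04. In RIP the count was also 3 of 5, beside 44.7%, with medians of 0.45 and 0.00. Adding TM7nox to LPS called 1 of 5 in RNA (Notch2), beside 13.8%, or 6.4% for the lower direction, and 1 of 5 in RIP (Jag1), beside 16.2%. With the replicate block the count was 2 of 5 in RNA, Notch2 lower and Jag1 higher, beside 25% of all genes, and 3 of 5 in RIP, beside 33.6%. LPS with TM7nox against DMSO called 4 of 5 in RNA, beside 47.3%. LPS against DMSO and LPS with TM7nox against LPS share the LPS libraries, so opposite differences in these comparisons are not independent.

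**Figure D3:**
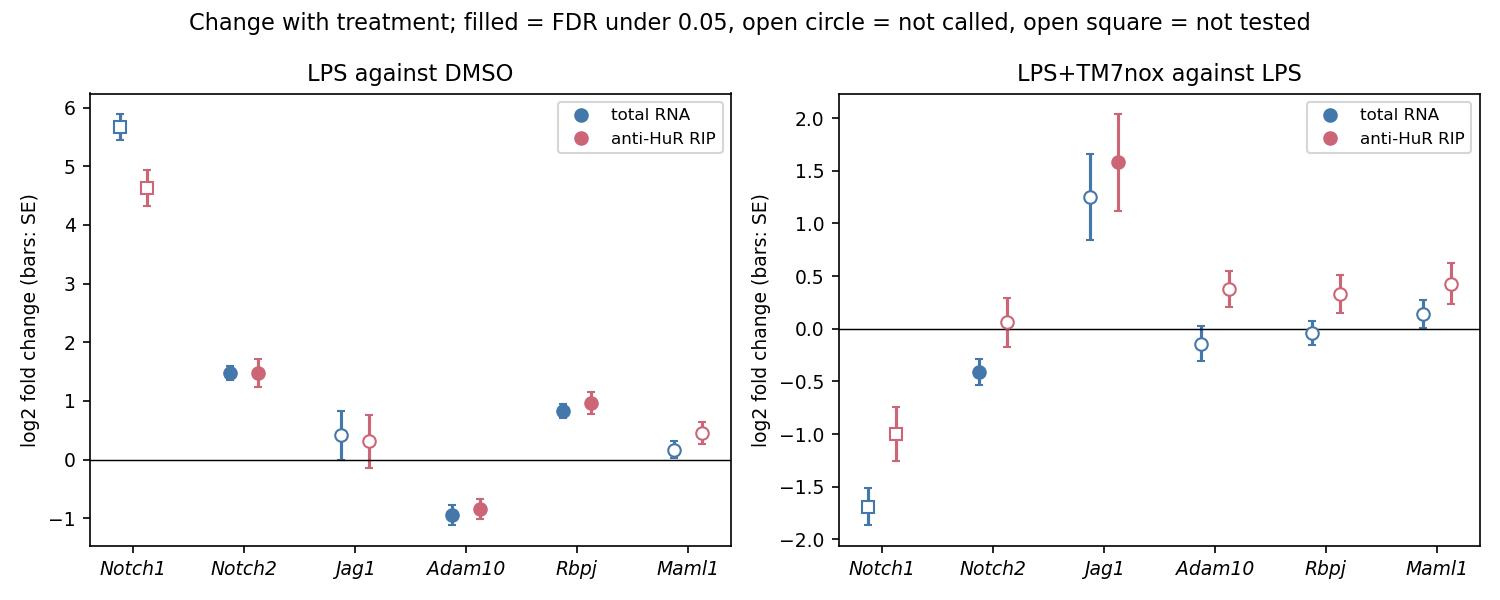
Log2 fold changes (points, with SE bars) of 6 members for LPS against DMSO and for LPS with TM7nox against LPS, in total RNA and anti-HuR RIP. Filled points are called; Notch1 is not tested. Notch1 is at 5.67 and then -1.69 in RNA, while Jag1 is at 0.41 and then 1.25.

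Anti-HuR recovery separated the members. RIP and RNA libraries were fitted together, and the ratio compares shares of the library, with the median of all genes at 0.04, -0.06 and -0.09 in DMSO, LPS and LPS with TM7nox. Jag1 was recovered above its share of total RNA by 3.46 on the log2 scale in DMSO (SE 0.496), 3.26 in LPS (SE 0.483) and 3.64 in LPS with TM7nox (SE 0.487), between the 91.0th and 91.4th percentile of all genes. Per replicate number in DMSO, the fold was 12.3, 8.45, 8.66 and 9.81. Rbpj stood at 3.15 (SE 0.168), 3.15 (SE 0.168) and 3.55 (SE 0.171), and the order of Jag1 and Rbpj did not exceed these errors. With replicates 3 and 4 alone, Rbpj was the higher of the pair in LPS (3.12 against 2.92). RIP libraries of Rbpj held 913.9, 1014.2, 896.7 and 900.4 CPM in DMSO, against 101.9 to 136.0 CPM in RNA. For Jag1 and Rbpj, adjusted p from edgeR was at most 2.28e-06 in each treatment.

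The other members were recovered less. Notch2 was recovered at 1.66, 1.53 and 2.01 in DMSO, LPS and LPS with TM7nox, Adam10 at 1.29, 1.26 and 1.80, and Maml1 at 0.67, 0.83 and 1.13, all called by edgeR. Maml1 in DMSO was not called with no filter on low counts (0.44, adjusted p = 0.108) or with replicates 1 and 2 alone (0.46, 0.15). Notch1 stood at 0.74 in DMSO (SE 0.289) and -0.38 in LPS (SE 0.235). The RNA libraries in which Notch1 was chosen are the denominators of both values, so they are a description with no test. In LPS with TM7nox Notch1 was at 0.31 (SE 0.238, adjusted p = 0.244), and it was called higher without RIP replicate 1 (0.56, adjusted p = 0.0271) and with size factors in place of TMM (0.55, 0.043). Leaving Notch1 out, 5 of 6 members tested were called in DMSO, beside 70.4% of all genes, all 5 higher, beside 37.0% for that direction. In LPS and in LPS with TM7nox the count was also 5 of 6, beside 63.7% and 69.9%, again all higher, beside 32.9% and 35.2%. The member not called in these comparisons was Notch4.

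**Figure D4:**
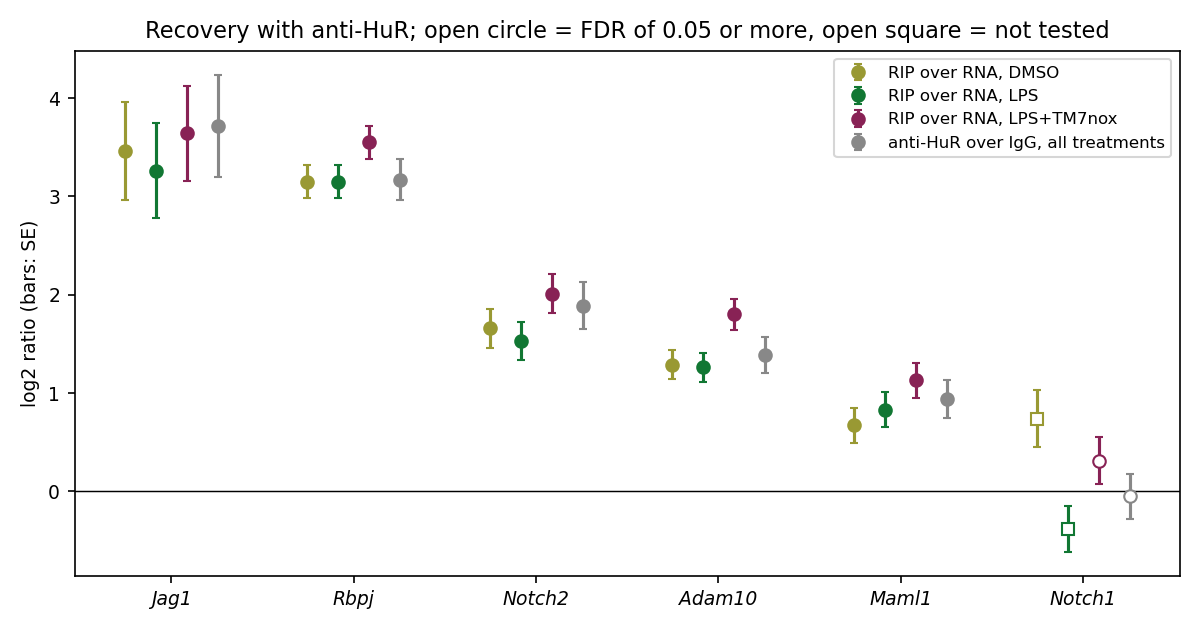
Log2 ratio of anti-HuR RIP to total RNA in each treatment and of anti-HuR to control IgG over all treatments, with SE bars; open circles are not called and open squares are not tested. Jag1 and Rbpj lie above 3 in all 4 comparisons and Notch1 lies between -0.38 and 0.74.

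Control IgG measures what sticks to beads and antibody without HuR. With treatment in the model, 12 RIP libraries exceeded the 3 IgG libraries by 3.72 for Jag1 (SE 0.519, edgeR adjusted p = 3.13e-06), 3.17 for Rbpj (SE 0.207), 1.89 for Notch2 (SE 0.24), 1.39 for Adam10 (SE 0.182) and 0.94 for Maml1 (SE 0.189). Notch1 gave -0.05 with a 95% interval of -0.49 to 0.40, and 0.08 with size factors in place of TMM. The count was 5 of 6 called, beside 68.1% of all genes, all 5 higher, beside 33.8%. IgG libraries held 5.17, 8.40 and 11.4 CPM of Jag1 in DMSO, LPS and LPS with TM7nox, against 5.70, 5.68 and 9.59 CPM in total RNA of the same replicate number. All 3 IgG libraries are replicate 3, so replicate number and antibody overlap in part. Within replicate 3, RIP exceeded IgG by 9.54-, 6.03- and 8.95-fold for Jag1 and by 8.58-, 8.68- and 9.75-fold for Rbpj, in DMSO, LPS and LPS with TM7nox. The fit on replicate 3 alone gave 3.0 for Jag1 and 3.17 for Rbpj, the reverse of their order over all libraries, with both called. No test within a treatment was run, since each had 1 IgG library.

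No member tested was called for a change of recovery between treatments. The change of the RIP to RNA ratio from DMSO to LPS was called for 0 of the 6 members tested by edgeR, and 0 had an unadjusted p under 0.05, beside 0.0419% called among all genes. The 95% intervals were -1.46 to 1.05 for Jag1, -0.42 to 0.44 for Rbpj and -0.66 to 0.40 for Notch2. Notch1 is described with no test here, at -1.13 (SE 0.373). Its RIP to RNA ratio was 1.01, 1.33, 1.51 and 2.25 in DMSO and 0.777, 0.789, 0.713 and 0.743 in LPS, with no overlap. The denominators are the RNA libraries in which Notch1 was chosen, so the choice itself favours this separation. In DMSO they rest on 9 to 55 reads. Hes1 and Hey1 were below the count filter here. Within a replicate number, the ratio was higher in LPS than in DMSO in 4 of 4 pairs for Maml1, in 3 of 4 for Adam10 and Rbpj and in 2 of 4 for Jag1 and Notch2. From LPS to LPS with TM7nox, 0 of 6 were called by edgeR, beside 0.00699%, and 1 had an unadjusted p under 0.05. This was Adam10 (0.54, SE 0.212, unadjusted p = 0.017 and adjusted p = 0.871). Notch1 was at 0.70 (SE 0.335), again with no test. DESeq2 and the replicate block also called 0 members in both comparisons. Within a replicate number, the ratio was higher with TM7nox than with LPS alone in 4 of 4 pairs for Jag1, Adam10, Rbpj and Maml1 and in 3 of 4 for Notch2. The median over the 6 members was 0.39, beside 0.0 for all genes, and 5 of 6 were above 0. The share of all genes with such pairs was not computed. The members come from the same libraries, so the counts of pairs are not independent and no conclusion is drawn from them. The interval for Jag1 ran from -0.85 to 1.61 and that for Rbpj from -0.04 to 0.82.

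**Figure D5:**
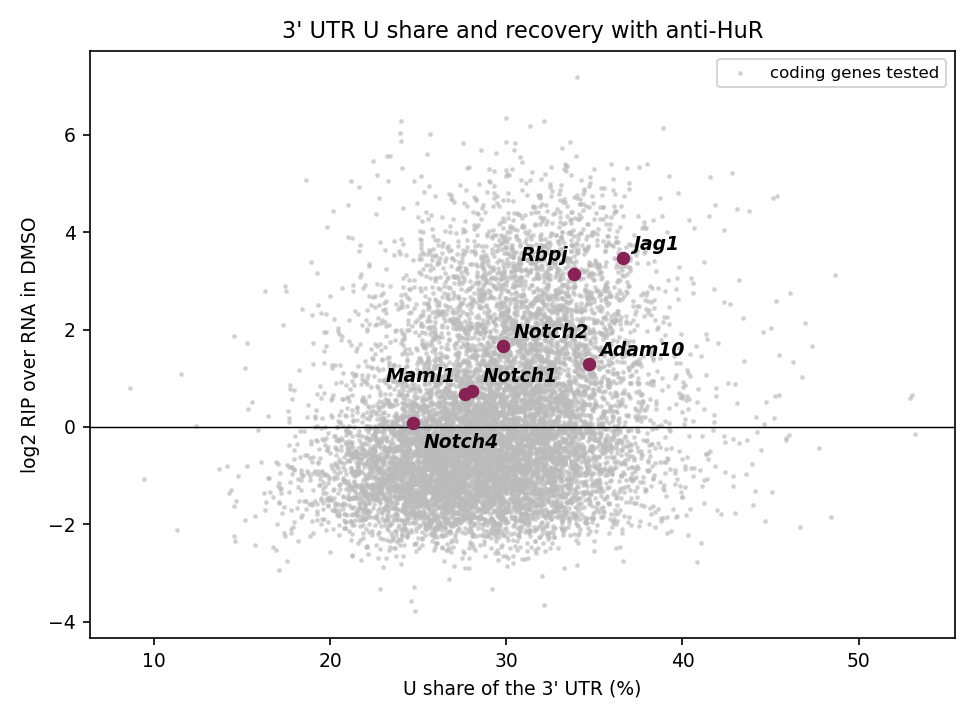
U content of the 3′ UTR (percent) against the log2 ratio of anti-HuR RIP to total RNA in DMSO, for 10990 protein-coding genes (grey) and 7 members (labelled). Jag1 (36.6% U, 3.46) and Rbpj (33.86%, 3.15) lie at the upper right, Adam10 (34.71%) lies lower at 1.29, and genes with the same U content span a wide range of ratios.

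Set beside the 3′ UTR windows shown above, the members did not follow a single order. Jag1, with Rbpj one of the 2 members of highest ratio, had the most ATTTA per kb and the longest T run among the members tested. Adam10 had more U than Rbpj (34.71% against 33.86%) and more T runs per kb (9.37 against 4.81), but a lower ratio in DMSO (1.29 against 3.15). Notch1, with 2.46 ATTTA per kb, had more of that motif than Rbpj (1.60) and a ratio of 0.74. The points are genes of 1 set of libraries, so this is a description across genes.

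Rbpj, with 2 promoters listed, was the only one of the 7 members in the RefSeq promoter table (build GRCm38.p6, 250 bases before to 50 after a gene's start) that held TGGGAA, the core of the site that RBPJ itself binds, searched on both strands. Its first promoter, the one with more matches, is shown. The table held no promoter of Hes1 or Hey1, so these were not searched. Capitals mark the motif, which is TTCCCA where it lies on the other strand, and 25.6% of the 32851 promoters in the table held it.
Rbpj promoter, chr5:53590096-53590395, plus strand: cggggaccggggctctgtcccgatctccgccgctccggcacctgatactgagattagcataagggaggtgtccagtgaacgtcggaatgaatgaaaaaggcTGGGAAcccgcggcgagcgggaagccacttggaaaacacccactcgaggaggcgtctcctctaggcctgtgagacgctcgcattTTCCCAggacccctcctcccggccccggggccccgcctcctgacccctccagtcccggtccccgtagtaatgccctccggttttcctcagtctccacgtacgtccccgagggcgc
This window holds 2 matches, and the NF-κB consensus, searched on both strands by that name, has none in it and so overlaps neither. That consensus was found at Notch2, Notch4 and the second Rbpj promoter, and in 11.2% of all promoters. A match is a description of the letters and was not tested for binding.

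Other genes of the pathway changed with LPS in both directions. Of 63 listed genes 48 were tested in RNA. Without the Delta ligand Dll1, 17 of 47 rose and 12 fell with LPS (61.7% called, beside 42.0% of all genes), and their median log2 difference was -0.12. Dll1 had 4 reads in the 4 DMSO libraries and 490 in LPS (0.0293 and 4.47 CPM). It passed the count filter only through the groups with LPS, so its values are a description, with no call. Furin, the convertase that cleaves the Notch precursor, rose from 55.5 to 526.2 CPM (log2 3.19, SE 0.208). Dtx2 (1.73, SE 0.166) and Dtx3l, ubiquitin ligase genes of the Deltex family, rose, the latter from 51.3 to 169.1 CPM (1.67, SE 0.162). Neurl1b, a ubiquitin ligase that promotes ligand endocytosis, fell from 14.4 to 2.08 CPM (log2 -2.86, SE 0.373). Maml3, a paralogue of Maml1, fell from 15.9 to 2.62 CPM (-2.65, SE 0.27). Aph1c, a gamma-secretase subunit gene, fell from 1.56 to 0.51 CPM (-1.71, SE 0.38). Its values rest on 4 to 72 reads per DMSO library and 10 to 20 per LPS library. Mfng, a Fringe glycosyltransferase of the receptors, fell from 15.0 to 6.36 CPM (-1.3, SE 0.19). By role, 5 of 7 coactivators tested rose and 2 fell, 4 of 9 receptor cleavage genes rose and 1 fell, and 3 of 9 turnover and trafficking genes rose and 1 fell. Of 13 corepressors 4 rose and 3 fell, of 5 receptor glycosylation genes 1 rose and 3 fell, and of 3 ligand endocytosis genes 2 fell, beside 20.2% higher and 21.7% lower of all genes. Among the 6 other effector and feedback genes, 1 was tested and it was not called, and the Notch feedback inhibitor Nrarp had no read in any library.

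With TM7nox added to LPS, and without Numbl, 2 of 47 rose and 4 fell in RNA (12.8% called, beside 13.8% of all genes). Mib2, a ligase of the Mind bomb type that acts on ligands, rose from 5.47 to 22.7 CPM (2.05, SE 0.263, edgeR adjusted p = 0.000179). Numb, an inhibitor of Notch receptors, rose from 26.9 to 44.2 CPM (0.72, SE 0.147). Its paralogue Numbl had 24 and 85 reads over 4 libraries each. It met the count filter in 1 of 4 LPS libraries and 4 of 4 with TM7nox, and passed only with the latter, so these values are a description. Lfng, another Fringe glycosyltransferase, fell from 13.1 to 3.71 CPM (-1.82, SE 0.241) and also fell in RIP (-2.16, SE 0.317). The corepressor Tle3 fell from 52.9 to 18.8 CPM (-1.5, SE 0.266), and Furin from 526.2 to 321.4 CPM (-0.71, SE 0.191). Dll1 was not called, at 4.47 and 2.46 CPM.

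In anti-HuR RIP over RNA in DMSO, 20 of the 48 other pathway genes were higher and 11 lower (64.6% called, beside 70.4% of all genes). Neurl1b (4.98, SE 0.475) and the acetyltransferase gene Crebbp (4.27, SE 0.187), which encodes a transcriptional coactivator, exceeded Jag1. Snw1, a nuclear coregulator of RBPJ, was the lowest (-2.15, SE 0.185), followed by Psen2, a catalytic subunit of gamma-secretase (-1.67, SE 0.214).

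The genes whose log2 level followed Notch1 most closely over the 12 total RNA libraries were Stat3 (Pearson r 0.9966), Cd80 (0.9959), Msr1 (0.9917), Bambi-ps1 (0.9913) and Socs3 (0.9903), out of 8270 genes compared. These libraries fall into 3 treatment groups, so the values describe a shared order of groups and no p is given. Stat3, a transcription factor, was at means of 33.9, 197.0 and 108.6 CPM in DMSO, LPS and LPS with TM7nox. Cd80, a costimulatory ligand, was at 4.08, 45.0 and 19.9 CPM. Socs3, an inhibitor of cytokine signalling, was at 2.5, 822.1 and 249.2 CPM. Bambi-ps1 is annotated as a pseudogene, and reads shared with its parent gene were not separated.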

How the data were processed

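The authors deposited 1 table of raw counts, whole numbers of reads per gene and library with no normalization, for 55483 Ensembl mouse genes in 27 libraries. Each sample came from lysates of about 30 M cells, and a stranded kit was used on 7 ng of RNA, per the labels' protocols. Per the submitters' processing notes, FastQC 0.11.9, STAR, HTSeq, DESeq2 and the GRCm39 build were used; their roles, the annotation release and the strand setting of the counting were not stated. Without strand, reads of a gene and an overlapping gene on the other strand, as at Notch1, cannot be told apart. No molecular identifiers are stated, so floors and intervals cover counting error only.

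Tests on the counts used R 4.3.3 and edgeR 4.0.16 (quasi-likelihood F test, TMM, filterByExpr with a minimum count of 10, Benjamini-Hochberg over all genes) in fits of 12 RNA, 12 RIP, both together (24), and RIP with IgG (15, treatment as covariate). SE is the log2 difference divided by the square root of F, and the 95% intervals use it with a normal quantile. CPM use 1 TMM scale over the 27 libraries. Of the gene identifiers, 51731 (93.2%) matched GENCODE M39, which gave exon lengths and 3′ UTRs (98.0% of 11213 protein-coding genes tested had one). The fitting was tested on simulated data. Alternatives were DESeq2 1.42.0, RLE size factors, no filter, the replicate block, a term for replicates 1 and 2 against 3 and 4, each of these pairs alone, and each library left out.

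Samples with the same number deviated together in each pair of all 8 comparisons checked (correlations 0.19 to 0.54). Each correlated best with its own number, except replicate 3 in RNA for LPS against DMSO (0.19). The numbers were therefore taken to pair the samples, and the labels do not say what they mark. No 2 replicates agreed within counting noise (chi-square per gene 38.0 to 213 over 36 pairs). All 9 members are named; other pathway genes are named by the largest called differences, at most 4 per direction and comparison, and the 5 genes most like Notch1 by Pearson r of log2 CPM over the 12 RNA libraries, among genes with a mean of at least 5 CPM and a symbol that is not a predicted one. Members, lists and tests were chosen with earlier results of these data known. Planned tests of Notch1 that use the DMSO or LPS libraries in which it was chosen were not used. Results for 1 marker list are not reported here.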

Additional observations from a re-analysis of the deposited data

Results flagged for a closer look

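In 52 groups of 4 libraries with values for a member, 7 held a library whose gap to the nearest other, divided by the range, was above Dixon's 95% critical value for 4 samples. Chance flags about 1 in 20 such groups where values are continuous. A group with reads in only 1 library is flagged whatever its value, so 7 of 52 cannot be set against that rate. Adam10 in LPS with TM7nox total RNA was at 92.5 CPM in replicate 1, against 59.7 to 65.0 CPM in the others. Rbpj in DMSO RIP was at 1014.2 CPM in replicate 2, against 896.7 to 913.9 CPM. The other 5 rest on few reads. Hes1 was at 0.477 CPM (11 reads) in replicate 1 of LPS total RNA, against 0.0328 to 0.106 CPM. Hes1 was also at 0.0983 CPM (3 reads) in DMSO total RNA replicate 3, at 0.187 CPM (4 reads) in LPS RIP replicate 1 and at 0.0336 CPM (1 read) in DMSO RIP replicate 1, with 0 in the other libraries of each group. Hey1 was at 0.0333 CPM (1 read) in LPS with TM7nox total RNA replicate 3, again with 0 in the others.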

How the results depend on the processing

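No called member changed direction under any alternative. The number of members called, Notch1 counted only where it was tested, differed from the reported one by over 1.5 times in these settings. LPS with TM7nox against LPS in RNA went from 1 to 2 with DESeq2, the replicate block, the term for the pairs of replicates and replicates 3 and 4 only, and in RIP from 1 to 3 with the block. RIP LPS against DMSO fell from 3 to 1 with replicates 1 and 2 only. With each library left out in turn, the number called ranged from 0 to 1 for LPS with TM7nox against LPS in RNA and likewise in RIP, from 4 to 5 for LPS with TM7nox against DMSO in RNA and from 5 to 6 for RIP over RNA in LPS with TM7nox; in the other comparisons it stayed at its value. The cause was not tested. Apart from the calls given beside the results, the replicate block changed no call of a member. It was not run for anti-HuR against IgG, where all IgG libraries are replicate 3.

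Counts over all genes depended more on the setting. For LPS with TM7nox against LPS, RNA gave 1704 genes, 3091 with the replicate block, 168 with replicates 1 and 2 only and 3489 with replicates 3 and 4 only; RIP gave 2212, 4577, 789 and 1070 in the same order. With replicates 1 and 2 only, LPS against DMSO gave 1668 of 5190 in RNA and 3392 of 6090 in RIP, and LPS with TM7nox against DMSO gave 2246 of 5850. The change of the RIP to RNA ratio with LPS gave 6 genes, 69 with DESeq2, 50 with the replicate block, 49 with no filter, 15 with the term for the pairs of replicates, 13 with replicates 3 and 4 only and 0 with replicates 1 and 2 only. Its change with TM7nox gave 1, and 5 with no filter, 2 with the block, 2 with the term and 0 within either pair. Fewer samples enter the fits on 2 replicates.

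RLE size factors moved the median of all genes in RIP over RNA by 0.16, 0.18 and 0.22 (DMSO, LPS, LPS with TM7nox) and in anti-HuR against IgG by 0.13. DESeq2 moved it by 0.49, 0.36 and 0.56, over more genes, and in RIP LPS against DMSO by -0.15. Depth limits Notch4, Hes1 and Hey1, for which a difference was not detectable, and Notch1 in the shallowest DMSO library, where it rests on 9 reads.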

Other observations

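Itch, a ubiquitin ligase gene that acts on Notch and other receptors, stood apart in the control IgG libraries. It was at 10287.8, 15011.3 and 15850.3 CPM in the DMSO, LPS and LPS with TM7nox IgG libraries. Total RNA means were 42.1, 48.6 and 57.2 CPM and anti-HuR RIP means 399.0, 636.9 and 876.5 CPM. In the fit of RIP against IgG it was lower with anti-HuR, at -4.51 on the log2 scale (SE 0.271, edgeR adjusted p = 5.73e-11), the lowest of the other pathway genes tested, while RIP over RNA in LPS was higher, at 3.72 (SE 0.352).

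Neurl1b, the ligand endocytosis gene with the highest anti-HuR recovery, combined a low level in total RNA with a high one in RIP. Its means were 14.4, 2.08 and 1.41 CPM in total RNA and 428.5, 36.5 and 43.9 CPM in RIP, in DMSO, LPS and LPS with TM7nox. It fell with LPS in RIP by 3.59 on the log2 scale (SE 0.461, edgeR adjusted p = 1.27e-05), as it did in RNA. Crebbp was at 142.4, 184.8 and 219.4 CPM in RNA and at 2519.6, 3581.5 and 6091.4 CPM in RIP, and in RIP it rose with TM7nox over LPS by 0.82 (SE 0.195, edgeR adjusted p = 0.00921). All 3 genes were named by their largest called differences.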
